A study of Mus musculus with 12 samples.

Results

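The genes described here are the 3 sensors of the unfolded protein response, Ern1 (IRE1α), Eif2ak3 (PERK) and Atf6, and 3 transcription factors that act below them, Xbp1, Atf4 and Atf3. They were taken by name, as the rows of the liver count table whose Ensembl identifiers carry these names in the GENCODE vM1 annotation, which gave 6 of 51609 rows. All 6 passed the filter on low counts and were tested. Liver RNA of C57BL/6 mice was depleted of rRNA and sequenced in 4 groups of 3 animals: wild-type mice on water, wild-type mice with 2% dextran sodium sulfate (DSS) in the drinking water for 6 days, and RelaΔhepStat3Δhep mice on water or on the same DSS course. DSS damages the colon epithelium and is a model of acute colitis, so the liver was read at a distance from the treated organ.

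RelaΔhepStat3Δhep mice carry floxed Rela and Stat3 and a Cre recombinase under the albumin promoter, which deletes both genes in hepatocytes and leaves them in Kupffer, endothelial, stellate and other cells of the liver. The study's methods give male and female mice of 5 to 7 weeks of age, co-housed littermates. In them wild-type stands for Cre-negative littermates that carry the floxed alleles. Whole liver was sequenced, so fewer cells of a type and less RNA per cell cannot be told apart.

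The unfolded protein response is set off when unfolded proteins collect in the endoplasmic reticulum (ER). IRE1α cuts the Xbp1 mRNA so that an active factor, XBP1s, is made. PERK phosphorylates eIF2α, which lowers translation in general and raises that of Atf4, whose protein switches on genes of amino acid metabolism and also Atf3. ATF6 travels to the Golgi, is cleaved there and enters the nucleus to raise chaperone genes, and XBP1s raises chaperones and genes of ER-associated degradation. Much of this control lies in splicing, phosphorylation, cleavage and translation, which gene counts do not read. Hepatocytes secrete most plasma proteins and hold a large ER.

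Ern1 (ENSMUSG00000020715) lies at chr11:106255964-106349166 on the minus strand of mm9, and Eif2ak3 (ENSMUSG00000031668) at chr6:70794509-70855239 on the plus strand. Atf6 (ENSMUSG00000026663) is at chr1:172634588-172797902 on the minus strand, Xbp1 (ENSMUSG00000020484) at chr11:5420662-5425896 on the plus strand, Atf4 (ENSMUSG00000042406) at chr15:80085614-80087970 on the plus strand and Atf3 (ENSMUSG00000026628) at chr1:192994175-193007219 on the minus strand. Small RNA genes lie inside Eif2ak3 (1) and Atf6 (2), and none overlaps an exon of either.

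The sequence of Xbp1 that IRE1α removes is shown because the count of the gene includes mRNA with and without it. The 26 bases in capitals lie at chr11:5424282-5424307 (mm9, plus strand), inside an exon of 3 of the 6 annotated transcripts. The cuts fall in CCGCAG and CTGCAG, each after its first 3 bases. A search for 2 such sites (CNGCNG) 26 bases apart also matched chr11:5421119-5421144, so the letters alone do not single out the stretch.
Xbp1 stretch removed by IRE1α: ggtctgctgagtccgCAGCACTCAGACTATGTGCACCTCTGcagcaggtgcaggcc

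Atf4 carries short reading frames before its own start, through which its translation is controlled. In the annotated transcript ENSMUST00000109605 the short frame at chr15:80086012-80086023 (mm9, plus strand) has 3 codons and begins 196 bases before the start of the protein, with its start and stop codons in capitals. A second frame of 59 codons begins 97 bases before that start and runs over it. Another frame of 36 codons begins 475 bases before it.
Atf4 short upstream frame: ATGgcgtatTAG

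The 250 bases before the start of Atf3, the gene with the largest change, and of Eif2ak3, the sensor with the largest difference between genotypes, are shown from RefSeq in the build GRCm38.p6. The RefSeq table held 5 of the 6 genes, without Atf6. The window searched ran from 250 bases before to 50 bases after the start, on both strands. Capitals in Atf3 (chr1:191183334-191183583, minus strand) mark the element CARE (TGATGNAA), to which ATF4 and C/EBP factors bind, at positions -110 to -103 and reading TTGCATCA on the gene's strand. CARE was present in 3.97% of 32851 promoters of this length and in no other of the 5.
Atf3 promoter: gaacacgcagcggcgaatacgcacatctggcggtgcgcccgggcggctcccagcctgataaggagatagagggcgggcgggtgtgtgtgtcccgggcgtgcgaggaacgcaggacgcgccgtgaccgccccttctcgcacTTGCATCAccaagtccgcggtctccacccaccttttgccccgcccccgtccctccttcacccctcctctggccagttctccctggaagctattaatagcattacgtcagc

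Capitals in Eif2ak3 (chr6:70844265-70844514, plus strand) mark 6 CCAAT boxes (CCAAT or its complement) and a GAS element (TTCNNNGAA), the type of site that STAT factors bind, at -129 to -121 and clear of the CCAAT boxes. A GAS match was found in 8.30% and a CCAAT box in 37.4% of promoters. Atf4 held 2 CCAAT boxes and Atf3 held 1, at positions 5 to 9 after its start.
Eif2ak3 promoter: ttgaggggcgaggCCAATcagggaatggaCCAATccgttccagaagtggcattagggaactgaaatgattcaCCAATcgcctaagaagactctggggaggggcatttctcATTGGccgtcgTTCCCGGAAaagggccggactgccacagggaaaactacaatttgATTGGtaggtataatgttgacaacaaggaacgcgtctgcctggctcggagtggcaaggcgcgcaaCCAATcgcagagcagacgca

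None of the 5 windows held the ER stress elements ERSE (0.119% of promoters) or ERSE-II (0.0365%), CRE (TGACGTCA, 1.79%), the UPRE core (TGACGTG, 2.01%), AP-1 (TGAGTCA, 5.20%), the E-box (CACGTG, 7.15%) or the D-box core (TTANGTAA, 2.32%). The core ACGT, which is part of CRE and of the UPRE core and was present in 30.9% of promoters, was found in Atf3 at -8 to -5 and in Xbp1 at -31 to -28. Ern1 held none of the 11 elements. A match is a description of the letters, and the data hold no measurement of factor binding.

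Several facts of the libraries bear on the values below. Totals of estimated counts ran from 65879529 to 82850098. Levels are normalised estimated counts (CPM), scaled to the TMM-adjusted size of each library. Summed levels of 6 hepatocyte markers were 81657 to 167402 CPM over the 12 livers. Rela did not separate the genotypes (39.5 to 62.3 CPM over the 12 livers) and Stat3 was at 43.0 to 74.8 CPM in the 6 livers labelled RelaΔhepStat3Δhep against 45.7 to 329.5 in wild-type livers. Between genotypes edgeR called neither gene, while DESeq2 called Stat3 after DSS. The counts are of whole genes in whole liver and do not separate exons or cell types, so they check the deletion only in part, and the genotype is given as labelled. The 3 DSS-treated livers labelled RelaΔhepStat3Δhep had 903 to 1283 CPM of Xist and at most 0.120 of 4 Y-linked transcripts summed, while the other livers had at least 30.1 of the Y-linked sum. Among those, the untreated wild-type liver of replicate 3 had both high Xist (1143 CPM) and the lowest Y-linked sum. In the comparisons with the DSS-treated livers labelled RelaΔhepStat3Δhep, sex and treatment or genotype cannot be told apart.

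The plot of level per exon length shows how the 6 genes stood to each other. On the scale of CPM per kilobase of exon, Xbp1 was highest, at 59.6 to 138 over the 12 livers, followed by Atf4 at 34.3 to 58.6. Both orders, Xbp1 above Atf4 and Atf4 above Ern1, held in 12 of 12 livers. Ern1 (8.93 to 20.4) and Atf6 (11.3 to 17.4) did not separate, with Ern1 the higher in 7 of 12 livers. Eif2ak3 followed at 3.66 to 8.95, below Atf6 in 12 of 12 livers. Atf3 was lowest, at 0.696 to 7.43, and exceeded Eif2ak3 in only 1 liver, a DSS-treated one labelled RelaΔhepStat3Δhep.

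**Figure D1:**
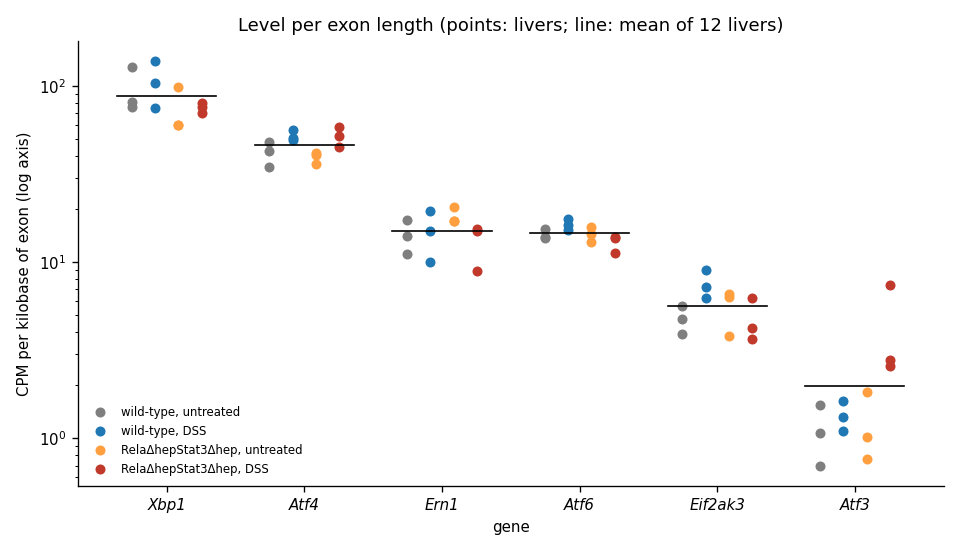
Level per exon length of the 6 genes on a log axis (CPM per kilobase of exon), with 1 point per liver coloured by group and a line at the mean of the 12 livers. Xbp1 is the highest and Atf3 the lowest, and the highest values of Atf3 are those of the DSS-treated livers labelled RelaΔhepStat3Δhep.

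Across the 5 comparisons, Atf3 was the only member to pass an adjusted p-value of 0.05, and it did so in a single comparison, the DSS response of livers labelled RelaΔhepStat3Δhep, where it rose 3.54-fold. In edgeR, 7.02% of the 17652 genes tested passed in that comparison, 4.57% higher and 2.46% lower, and the 1 member among 6 stands beside that background. No member passed in the DSS response of wild-type liver (0.685% of all genes), between genotypes in untreated liver (0.0623%), between genotypes after DSS (0.334%) or in the difference between the genotypes' DSS responses (0.408%). At an unadjusted p-value under 0.05 the edgeR counts of members in these 4 comparisons were 2, 0, 3 and 2, where 14.5%, 11.7%, 14.3% and 16.3% of all genes had one. The DESeq2 Wald test called 0, 0, 1 and 0 members, the 1 being Atf3, and limma-voom called none of them. Over all genes DESeq2 called 857, 322, 582 and 699 in these comparisons, against 121, 11, 59 and 72 in edgeR.

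After DSS, all 6 members had a positive log2 fold change in wild-type liver (median 0.24, all genes 0.02). Leaving out 1 liver turned Ern1 (lowest -0.18) and Xbp1 (lowest -0.085) negative there. In livers labelled RelaΔhepStat3Δhep 3 were positive and 3 negative (median -0.05, all genes -0.01). Between genotypes after DSS, 4 of 6 were lower in livers labelled RelaΔhepStat3Δhep (median -0.26, all genes -0.00). The comparisons share livers, so these counts are not independent of each other.

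**Figure D2:**
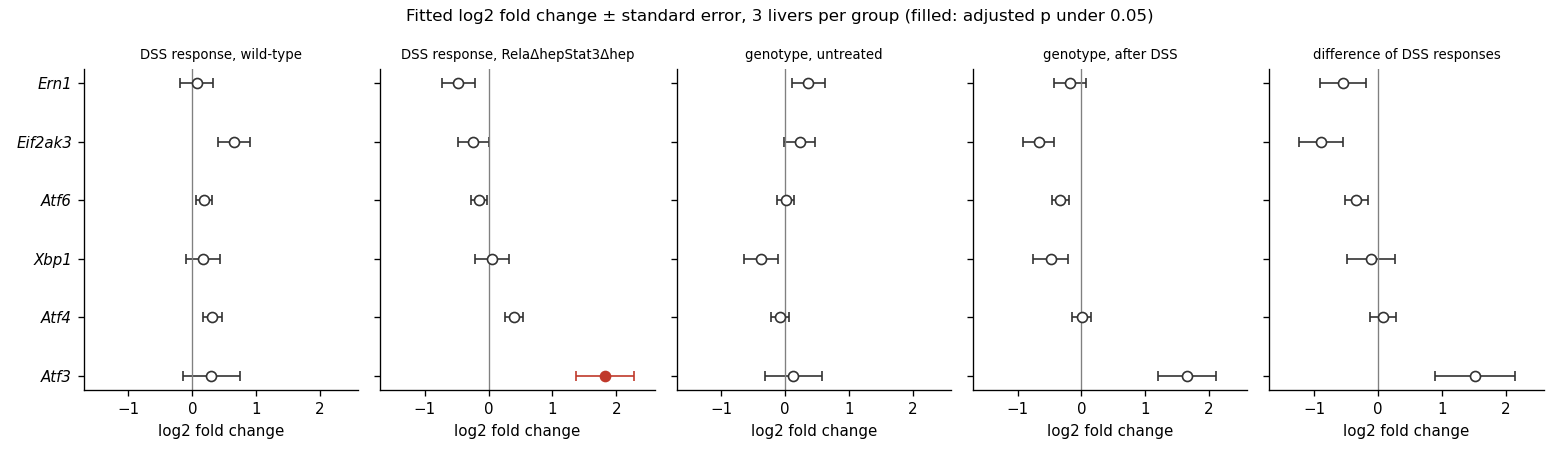
Fitted log2 fold change of each gene with its standard error in the 5 comparisons (x axis; 3 livers per group, and for the difference of DSS responses all 12). The filled point is Atf3 after DSS in livers labelled RelaΔhepStat3Δhep, at 1.82; the other points did not pass the adjusted threshold.

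Ern1, the kinase and RNase that cuts Xbp1, was measured at 90.8, 142 and 114 CPM in untreated wild-type liver and at 160, 82.2 and 122 after DSS. In livers labelled RelaΔhepStat3Δhep it stood at 167, 139 and 140.5 CPM untreated and at 73.0, 126 and 122 after DSS. The wild-type groups overlapped over nearly their whole range, while all 3 untreated livers labelled RelaΔhepStat3Δhep lay above the 3 that had received DSS. Groups without overlap were found for 31.8% of all genes in that comparison. The log2 fold change there was -0.48 (SE 0.26, edgeR adjusted p = 0.284), and the exact permutation test gave p = 0.1, the smallest that 3 livers against 3 allow. In wild-type liver the DSS response was 0.07 (SE 0.26, edgeR adjusted p = 0.943), and it turned to -0.18 without the DSS-treated replicate 1 and to -0.08 without the untreated replicate 1. The difference between the DSS responses was -0.54 (SE 0.36, adjusted p = 0.476).

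Eif2ak3 encodes PERK, the kinase of eIF2α. Its levels were 21.1, 25.7 and 30.5 CPM in untreated wild-type liver and 34.1, 39.0 and 48.6 CPM after DSS. Every DSS-treated wild-type liver was above every untreated one. Such a separation was found for 18.7% of all genes, and the log2 fold change of 0.65 (SE 0.24) had an unadjusted edgeR p of 0.0190 and an adjusted p of 0.233. With DSS-treated livers labelled RelaΔhepStat3Δhep at 19.9, 33.8 and 22.9 CPM and untreated ones at 20.6, 35.7 and 34.3, the DSS response there was -0.24 (SE 0.24, edgeR adjusted p = 0.588). The groups overlapped.

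After DSS, the 3 wild-type livers exceeded the 3 livers labelled RelaΔhepStat3Δhep in Eif2ak3, a separation that 16.8% of all genes showed between these groups. The genotype difference after DSS was -0.67 on the log2 scale (SE 0.24, edgeR adjusted p = 0.250, exact permutation p = 0.1), while in untreated liver it was 0.23 (SE 0.24, adjusted p = 0.761). The test of the difference between the DSS responses gave -0.90 (SE 0.34, unadjusted p = 0.0220, adjusted p = 0.232). Eif2ak3 therefore had the lowest unadjusted p of the members in this test and did not pass over all genes. Leaving out each liver in turn moved that difference between -1.15 and -0.74.

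Atf6, the sensor that becomes a transcription factor, varied least between livers, from 84.0 to 130.0 CPM over all 12. Untreated wild-type livers were at 104, 103 and 115 CPM and DSS-treated ones at 114, 130.0 and 121. Livers labelled RelaΔhepStat3Δhep were at 96.9, 118 and 108 CPM untreated and at 84.0, 103.5 and 103 after DSS. The DSS response was 0.18 in wild-type liver (SE 0.13, edgeR adjusted p = 0.561) and -0.15 in livers labelled RelaΔhepStat3Δhep (SE 0.13, adjusted p = 0.509), with overlap in both. After DSS the 3 wild-type livers were all above the 3 livers labelled RelaΔhepStat3Δhep (log2 fold change -0.33, SE 0.13, edgeR adjusted p = 0.284, exact permutation p = 0.1). Between these groups 16.8% of all genes did not overlap. In untreated liver the genotype difference was 0.01 (SE 0.13, adjusted p = 0.992).

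**Figure D3:**
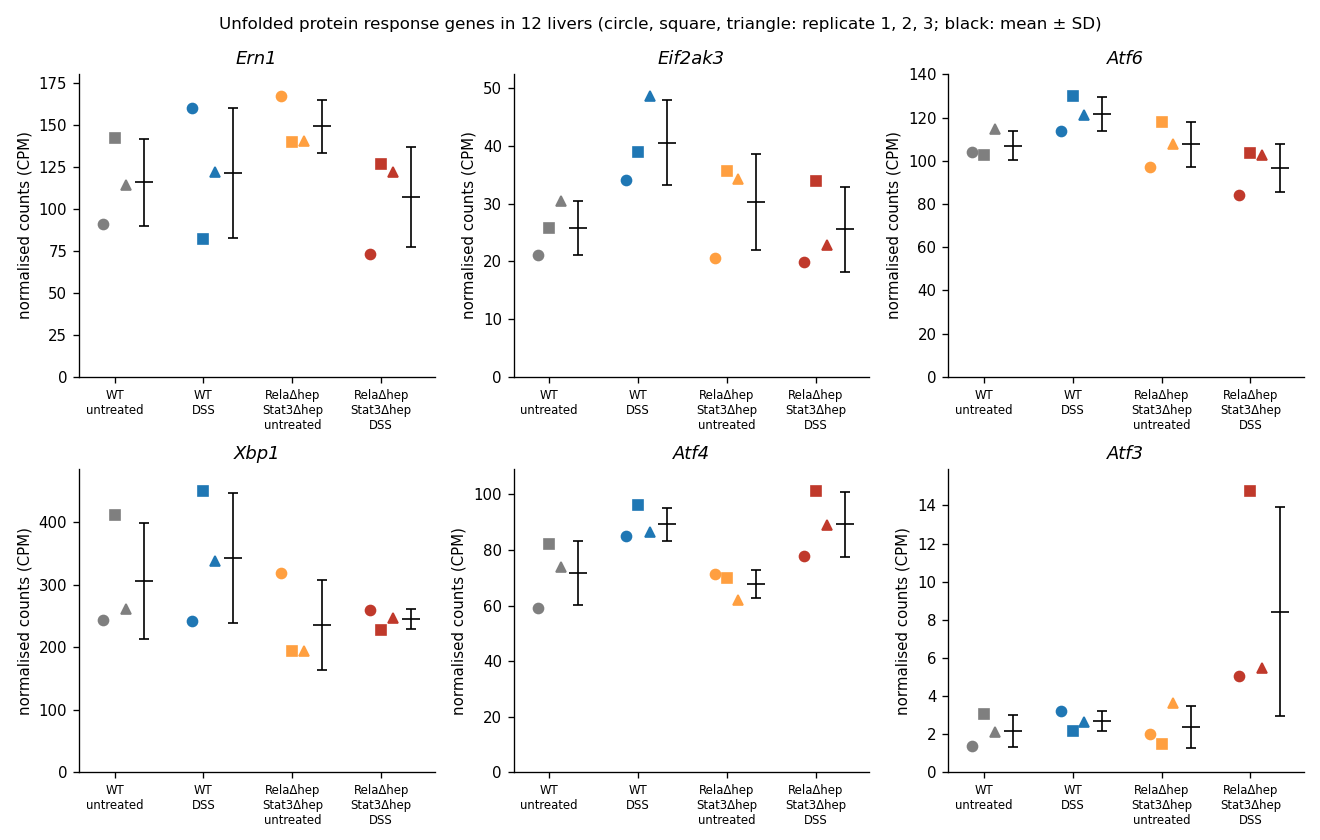
Normalised counts (CPM, y axis from 0) of each gene in each of the 12 livers by group, with replicates 1, 2 and 3 as circle, square and triangle and the mean ± SD of 3 livers in black. Atf3 is at 5.08 to 14.7 CPM in the DSS-treated livers labelled RelaΔhepStat3Δhep and at 3.64 or less in the other 9, and the mean of Eif2ak3 is highest in DSS-treated wild-type liver.

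Xbp1, the factor that IRE1α activates by splicing, spread widely within groups. It was measured at 244, 412 and 261 CPM in untreated and 242, 449 and 337 CPM in DSS-treated wild-type liver. Livers labelled RelaΔhepStat3Δhep had 319, 194 and 194 CPM untreated and 260, 228 and 247 after DSS. All pairs of groups overlapped, and 20.2% of all genes did not overlap between genotypes in untreated liver. The DSS response was 0.16 in wild-type liver (SE 0.27, edgeR adjusted p = 0.839) and 0.06 in livers labelled RelaΔhepStat3Δhep (SE 0.27, adjusted p = 0.926). The genotype difference was -0.38 untreated (SE 0.27, adjusted p = 0.624) and -0.49 after DSS (SE 0.27, adjusted p = 0.442). How much of this mRNA had lost its 26 bases cannot be read from gene counts.

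Atf4, the factor translated when eIF2α is phosphorylated, was at 59.2, 82.1 and 73.8 CPM in untreated wild-type liver and at 85.2, 96.0 and 86.5 after DSS. In livers labelled RelaΔhepStat3Δhep the levels were 71.2, 69.9 and 62.2 CPM untreated and 77.7, 101 and 89.0 after DSS. In both genotypes every DSS-treated liver lay above every untreated one. Groups without overlap were found for 18.7% of all genes in wild-type liver and 31.8% in livers labelled RelaΔhepStat3Δhep. The log2 fold change was 0.32 in wild-type liver (SE 0.15, edgeR adjusted p = 0.341) and 0.40 in livers labelled RelaΔhepStat3Δhep (SE 0.15, adjusted p = 0.116), and the exact permutation p was 0.1 in each. The 2 responses differed by 0.08 (SE 0.21, adjusted p = 0.876). After DSS the genotypes had close means, 89.2 ± 5.93 CPM in wild-type liver and 89.3 ± 11.7 in livers labelled RelaΔhepStat3Δhep (SD, n = 3). Their log2 difference was 0.00 with an SE of 0.14.

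Atf3 encodes a stress-induced factor that ATF4 raises and that is also an immediate early gene of many other stimuli. It was measured at 1.38, 3.05 and 2.11 CPM in untreated wild-type liver, at 3.24, 2.18 and 2.62 in DSS-treated wild-type liver, and at 2.01, 1.50 and 3.64 in untreated livers labelled RelaΔhepStat3Δhep. The 3 DSS-treated livers labelled RelaΔhepStat3Δhep had 5.08, 14.7 and 5.48 CPM, each above all 9 others. The estimated counts behind these values were 105 to 1231 per library. Atf3 rose after DSS in livers labelled RelaΔhepStat3Δhep by 1.82 on the log2 scale (SE 0.45, edgeR adjusted p = 0.0327), and the wild-type response was 0.30 (SE 0.45, adjusted p = 0.821). Between genotypes after DSS the log2 fold change was 1.65 (SE 0.45, edgeR adjusted p = 0.142, DESeq2 adjusted p = 0.0130), a 3.15-fold difference with no overlap, where 16.8% of all genes did not overlap. The test of the difference between the DSS responses gave 1.52 (SE 0.63, unadjusted p = 0.0325, adjusted p = 0.263), so that the rise was not shown to differ between genotypes.

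The call for Atf3 was near the threshold. Without the DSS-treated replicate 2 labelled RelaΔhepStat3Δhep, which had the highest level, the log2 fold change was 1.15 (edgeR adjusted p = 0.109), and without the untreated replicates 1 or 2 of that genotype the adjusted p was 0.101 and 0.132. It was 0.0685 with only the compared groups in the fit, 0.0552 without the filter on low counts, 0.0573 with the replicate number as a block and 0.463 with high Xist as a covariate. With DESeq2 it was 0.00150. The log2 fold change in the same order was 1.79, 1.82, 1.73, 1.89 and 1.79, so in these fits the size of the rise stayed near 1.82 and the p-value moved.

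Other lists moved in the same comparison as Atf3, in which edgeR called 4.57% of all genes higher and 2.46% lower. Of 18 immediate early genes, which respond to many stimuli within minutes and include Fos and Egr1, 6 rose after DSS in livers labelled RelaΔhepStat3Δhep, among them Klf6, Fos, Nr4a1 and Egr1, with a median log2 fold change of 1.28. Summed, the list was at 229 to 306 CPM in untreated and 290 to 554 in DSS-treated wild-type liver, and at 192 to 240 and 414 to 838 in livers labelled RelaΔhepStat3Δhep. Of 6 Kupffer cell markers 5 rose, and their sum was 277 to 307 CPM untreated and 565 to 920 after DSS. In wild-type liver that sum was 229 to 485 and 371 to 831. None of the Kupffer markers was called there. Neutrophil markers summed to 0.455 to 0.572 CPM in untreated and 6.49 to 23.5 in DSS-treated livers labelled RelaΔhepStat3Δhep, with Ly6g at 0 in 2 of the latter, and to 1.95 to 3.44 and 2.40 to 90.9 in wild-type liver. Of 15 clock genes 7 fell, and the list summed to 566 to 796 CPM untreated and 319 to 413 after DSS, while in wild-type liver it summed to 635 to 705 and 434 to 597, also without overlap. Clock genes differed between genotypes too. Nr1d1 was called lower in livers labelled RelaΔhepStat3Δhep, untreated (log2 fold change -3.72, edgeR adjusted p = 0.000362) and after DSS (-4.08, adjusted p = 0.00016). Nr1d2 was called lower after DSS (-2.01, adjusted p = 0.0481). At an unadjusted p under 0.05 there were 7 clock genes untreated and 8 after DSS, beside 11.7% and 14.3% of all genes. Both counts hold genes that were higher and genes that were lower. Untreated, 11 of 15 clock genes were higher in livers labelled RelaΔhepStat3Δhep (median log2 fold change 0.28), among them Cry1 (1.44) and Per1 (2.21). After DSS 4 of 15 were higher (median -0.51). T and NK cell markers summed to 2.72 to 3.00 CPM in untreated and 6.24 to 12.4 in DSS-treated livers labelled RelaΔhepStat3Δhep, with Gzma called (6.10-fold, edgeR adjusted p = 0.0305). Their sum was 3.35 to 8.26 and 1.32 to 5.66 in wild-type liver. Plasma and B cell markers were positive in 5 of 5 tested in livers labelled RelaΔhepStat3Δhep (median 1.24, none called). The part of immediate early genes, of Kupffer, neutrophil, T, NK, plasma and B cells and of the clock in the Atf3 values was not tested.

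The pathway around the members was followed through lists of partners and targets. Of 12 tested sensing partners and related factors, 2 rose after DSS in livers labelled RelaΔhepStat3Δhep, the ER-bound factor Creb3l1, from 0.889 to 2.36 CPM (log2 fold change 1.41, edgeR adjusted p = 0.0110), and Bak1, a pore-forming protein of apoptosis, from 12.8 to 22.1 CPM. In the other comparisons edgeR called none of the list, with 2 genes at an unadjusted p under 0.05 in wild-type liver after DSS, 0 between genotypes untreated, 4 after DSS and 4 in the difference of DSS responses, where DESeq2 called 1, 0, 1 and 0. Over all genes 4.57% were called higher after DSS in livers labelled RelaΔhepStat3Δhep, and 14.5%, 11.7%, 14.3% and 16.3% had such an unadjusted p in the other 4 comparisons. The medians of the list lay between -0.07 and 0.15.

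Among 14 genes of eIF2α phosphorylation, 1 rose and 2 fell after DSS in livers labelled RelaΔhepStat3Δhep. In the other 4 comparisons, in the order just given, edgeR called none, with 3, 1, 3 and 2 of 14 genes at an unadjusted p under 0.05, beside the same 14.5%, 11.7%, 14.3% and 16.3% of all genes and 7.02% called after DSS in livers labelled RelaΔhepStat3Δhep, and DESeq2 called 2, 0, 1 and 1. Eif2ak2 (PKR), an eIF2α kinase that senses double-stranded RNA, was at 32.1, 22.2 and 29.4 CPM untreated and at 87.5, 102 and 75.2 after DSS. It rose 3.16-fold (log2 fold change 1.66, SE 0.25, edgeR adjusted p = 0.00374), while Eif2ak3 in the same livers had a log2 fold change of -0.24. Ppp1r15b, the constitutive partner of the eIF2α phosphatase, fell by 0.73 on the log2 scale (adjusted p = 0.0180), and Eif2b1, a subunit of the exchange factor that phosphorylated eIF2α inhibits, fell by 0.52 (adjusted p = 0.0166).

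ATF4 target genes had positive log2 fold changes in 19 of 26 tested after DSS in wild-type liver (median 0.18) and in 18 of 26 in livers labelled RelaΔhepStat3Δhep (median 0.28), against medians of 0.02 and -0.01 for all genes. The wild-type median was 0.05, with 16 of 26 positive, without the untreated replicate 1, and 0.10 without the DSS-treated replicate 2. In livers labelled RelaΔhepStat3Δhep it lay between 0.17, without the DSS-treated replicate 3, and 0.53, without the untreated replicate 2, and it was 0.04 over the 21 targets with at least 10 counts in every liver. In wild-type liver 1 was called, beside 0.685% of all genes. This was Vldlr, a lipoprotein receptor that fell from 29.3 to 4.80 CPM (log2 fold change -2.61, edgeR adjusted p = 0.0302). Livers labelled RelaΔhepStat3Δhep had 4 called higher and 1 lower, beside 4.57% and 2.46% of all genes. Atf5, a factor related to Atf4, was at 173, 121 and 139 CPM untreated and at 320, 358 and 358 after DSS (log2 fold change 1.26, adjusted p = 0.00599). Psat1 of serine synthesis rose by 1.63 (adjusted p = 0.00623), Aldh18a1 of proline synthesis by 1.11 (adjusted p = 0.0180) and the stress protein Nupr1 by 1.93 (adjusted p = 0.0236), all on the log2 scale. Psat1 and Nupr1 were low, at 0.789 and 0.472 CPM untreated. Gpt2, an alanine aminotransferase, fell from 549 to 274 CPM and was picked out after its values were seen. Between genotypes in untreated liver 18 of 26 ATF4 targets were lower in livers labelled RelaΔhepStat3Δhep (median -0.19), and the median lay between -0.32, without the untreated replicate 2 of that genotype, and -0.09, without the untreated wild-type replicate 2 or with limma-voom. After DSS 15 of 26 were lower (median -0.11), a direction that did not hold: without the DSS-treated wild-type replicate 2, 12 of 26 were lower (median 0.02), and it was 13 of 26 with limma-voom, with high Xist as a covariate and without the DSS-treated replicate 1 labelled RelaΔhepStat3Δhep. Between genotypes untreated, after DSS and in the difference of DSS responses edgeR called none of the list, and DESeq2 called 2, 4 and 3. At an unadjusted edgeR p under 0.05 there were 6, 9 and 11 of 26, beside 11.7%, 14.3% and 16.3% of all genes.

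XBP1s and ATF6 target genes, the chaperones, folding enzymes and degradation factors of the ER, were mostly lower in livers labelled RelaΔhepStat3Δhep. After DSS, 30 of 32 tested were lower than in wild-type liver (median log2 fold change -0.50, all genes -0.00), and in untreated liver 30 of 32 were lower (median -0.24, all genes 0.00). Over all genes edgeR called 0.334% between genotypes after DSS and 0.0623% untreated, and 14.3% and 11.7% had an unadjusted p under 0.05. In edgeR 1 gene of the list was called after DSS and 0 untreated, with 16 and 10 at an unadjusted p under 0.05, and DESeq2 called 7 and 4. That gene was Fkbp11, a prolyl isomerase of secretory cells, at 18.2, 32.2 and 15.6 CPM in DSS-treated wild-type liver and at 8.45, 8.95 and 8.67 in DSS-treated livers labelled RelaΔhepStat3Δhep (log2 fold change -1.34, SE 0.24, edgeR adjusted p = 0.0424). Its 3 values in untreated livers labelled RelaΔhepStat3Δhep, 9.05, 10.2 and 8.11 CPM, were likewise all below the untreated wild-type values of 22.0, 15.9 and 15.6. The call was lost in 7 of 12 fits that left out a liver, those without the untreated wild-type replicate 2 or any of the 6 livers labelled RelaΔhepStat3Δhep, with adjusted p up to 0.154. Cell markers differed between genotypes too. Plasma and B cell markers were lower in 5 of 5 tested untreated (median -1.19) and higher in 5 of 5 after DSS (median 0.77). Neutrophil markers were lower in 4 of 4 both untreated (median -2.41) and after DSS (median -1.21). Untreated they were near the floor, with sums of at most 3.44 CPM in wild-type liver and 0.572 in livers labelled RelaΔhepStat3Δhep. After DSS they summed to 4.90, 90.9 and 2.40 CPM in wild-type liver and to 23.5, 6.49 and 11.1 in livers labelled RelaΔhepStat3Δhep. The lower values after DSS thus rested on the wild-type replicate 2. Hepatocyte markers were higher in 6 of 6 untreated (median 0.33) and in 3 of 6 after DSS (median 0.00). Kupffer, T and NK cell and endothelial markers were all lower untreated, with medians of -0.24, -0.42 and -0.12. After DSS all of them were higher, with medians of 0.42, 1.33 and 0.51. Stellate cell and cholangiocyte markers went both ways. The part of these cells in the target values was not tested.

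The median of the XBP1s and ATF6 targets after DSS rested in part on 1 wild-type liver, the DSS-treated replicate 2. It had the lowest TMM scaling factor of the libraries (0.758). Its neutrophil markers summed to 90.9 CPM, against 4.90 and 2.40 in DSS-treated wild-type replicates 1 and 3. Without the DSS-treated replicate 2 of wild-type, 25 of 32 genes were lower with a median of -0.22, and with limma-voom 27 of 32 were lower with a median of -0.28. Over the other settings the median lay between -0.68 and -0.36. Hspa5, the chaperone BiP that binds and silences the 3 sensors, was picked out after its values were seen. It was at 1545, 1559 and 1686 CPM in untreated wild-type liver and at 840.4, 988 and 1260.1 in untreated livers labelled RelaΔhepStat3Δhep, without overlap (log2 fold change -0.63, SE 0.25, edgeR adjusted p = 0.356, exact permutation p = 0.1). Between these groups 20.2% of all genes did not overlap.

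DSS itself was followed by 22 positive and 10 negative log2 fold changes among the XBP1s and ATF6 targets in wild-type liver (median 0.09, none called, and -0.16 without the DSS-treated replicate 2) and by 12 positive and 20 negative in livers labelled RelaΔhepStat3Δhep (median -0.10). In the latter, Herpud1, a factor of ER-associated degradation, fell from 272, 757 and 560 CPM to 126, 137 and 191 CPM (log2 fold change -1.80, SE 0.34, edgeR adjusted p = 0.00990). The untreated livers labelled RelaΔhepStat3Δhep stood above all 9 other livers in Herpud1 except that their lowest value lay below 2 DSS-treated wild-type livers at 276 and 413. Without the untreated replicate 2 or the DSS-treated replicate 1 of that genotype the call for Herpud1 was lost, at an adjusted p of at most 0.0514. Txndc5, a disulfide isomerase, fell by 0.68 on the log2 scale (adjusted p = 0.0413).

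**Figure D4:**
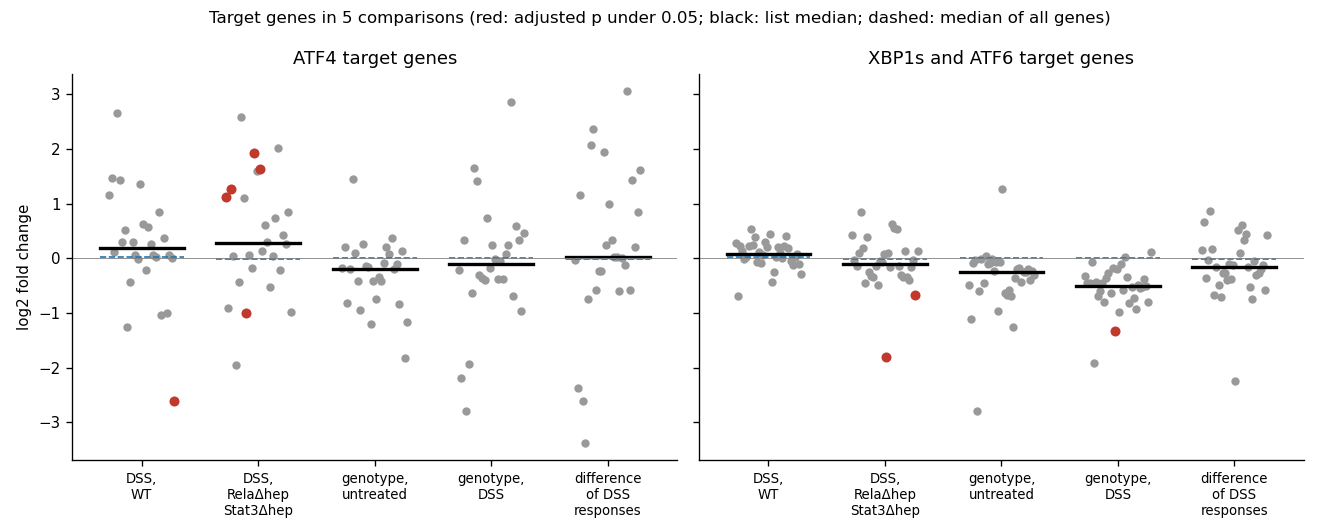
Log2 fold change (y axis) of each tested ATF4 target gene (left, 26 genes) and XBP1s and ATF6 target gene (right, 32 genes) in the 5 comparisons, with the list median in black, the median of all genes dashed and genes past the adjusted threshold in red. The right panel shows the medians of -0.24 and -0.50 in the genotype comparisons, and the left the 4 genes called higher and 1 lower after DSS in livers labelled RelaΔhepStat3Δhep.

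IRE1α also degrades other mRNAs, and 6 of the genes known for this were tested. Sparc, a matrix protein of stellate and endothelial cells, was at 98.0, 100.1 and 99.4 CPM in untreated wild-type liver and at 48.6, 49.5 and 47.4 after DSS (log2 fold change -1.03, SE 0.11, edgeR adjusted p = 0.00215). Untreated livers labelled RelaΔhepStat3Δhep were already at 48.9, 48.7 and 50.5 CPM (genotype difference -1.01, adjusted p = 0.00324) and DSS-treated ones at 70.0, 62.8 and 58.2. The DSS responses of Sparc differed by 1.40 (SE 0.15, adjusted p = 0.00248). Over all genes, 0.685% were called after DSS in wild-type liver, 0.0623% between genotypes untreated and 0.408% in the difference of responses. Of 5 stellate cell markers edgeR called none in any comparison, and their medians were -0.58 after DSS in wild-type liver, 0.63 in livers labelled RelaΔhepStat3Δhep, -0.73 between genotypes untreated and 1.20 in the difference of DSS responses, where 2 had an unadjusted p under 0.05 and DESeq2 called 2. Among them Col3a1 averaged 82.2 and 40.0 CPM in untreated and DSS-treated wild-type liver and 29.3 and 46.6 in livers labelled RelaΔhepStat3Δhep (difference of responses 1.71, edgeR adjusted p = 0.162). The stellate markers summed to 397 to 515 and 347 to 434 CPM in wild-type liver and to 352 to 413 and 414 to 537 in livers labelled RelaΔhepStat3Δhep. For 5 endothelial markers the median difference of responses was 0.58, with none called. The part of these cells in the Sparc values was not tested. EdgeR called none of the other 5 genes of this list, nor Ern1, in any comparison, and of the 5 only Hgsnat had an unadjusted p under 0.05, in 3 of the 5 comparisons.

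Of 11 bZIP genes related to Atf3, which form dimers with each other, Fosl2 rose after DSS in wild-type liver from 7.41 to 20.8 CPM (log2 fold change 1.49, edgeR adjusted p = 0.0201). Over all genes 0.685% were called in wild-type liver. In livers labelled RelaΔhepStat3Δhep Fos rose by 2.71 (adjusted p = 0.00623), Junb by 2.17 (adjusted p = 0.0311) and Batf by 1.93 (adjusted p = 0.0478), beside the 1.82 of Atf3. Over all genes 4.57% were called higher in these livers. The list's medians were 0.91 in wild-type liver and 0.55 in livers labelled RelaΔhepStat3Δhep, against 0.02 and -0.01 for all genes. Of the 21 calls in these 6 lists, 15 were in the DSS response of livers labelled RelaΔhepStat3Δhep. Calls over all genes were also most frequent there, at 7.02% of genes against 0.0623% to 0.685% in the other comparisons. In the 12 fits that left out a liver, Atf5, Psat1, Eif2ak2, Fos and the 3 calls of Sparc were kept throughout, while Vldlr and Txndc5 were kept in 3, Batf in 4, Gpt2, Aldh18a1 and Junb in 7, and Nupr1, Bak1 and Ppp1r15b in 8.

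Levels of the members were also compared with each other across the 12 livers, on log2(CPM + 0.5), in 19 relations. Eif2ak3 and Atf6 went together (Pearson r = 0.827, permutation p = 0.00073, adjusted p = 0.0139, Spearman rho = 0.888, permutation p = 0.00023, adjusted p = 0.00437). After leaving out the 2 livers farthest from the median of Eif2ak3, r was 0.752, and within groups, after subtracting group means, it was 0.741. Atf4 went with the mean of its 26 target genes (r = 0.794, permutation p = 0.00234, adjusted p = 0.0222, rho = 0.783, permutation p = 0.00399, adjusted p = 0.0379), with r = 0.749 without the 2 farthest livers and 0.794 within groups.

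Atf6 and the mean of the XBP1s and ATF6 targets had r = 0.740 (permutation p = 0.00756, adjusted p = 0.0479) and rho = 0.580 (adjusted p = 0.196), and r was 0.287 without the 2 farthest livers, so that the relation over the 12 rests on those, while within groups it was 0.677. Xbp1 and the same targets had r = 0.597 (permutation adjusted p = 0.125), and Ern1 and Xbp1 had r = -0.203. Atf3 and the mean of the immediate early genes had r = 0.615 (permutation adjusted p = 0.109, rho = 0.650), and within groups r was 0.0241. The 2 relations of Eif2ak3 with Atf6 and of Atf4 with its targets are the ones that passed in both r and rho.

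**Figure D5:**
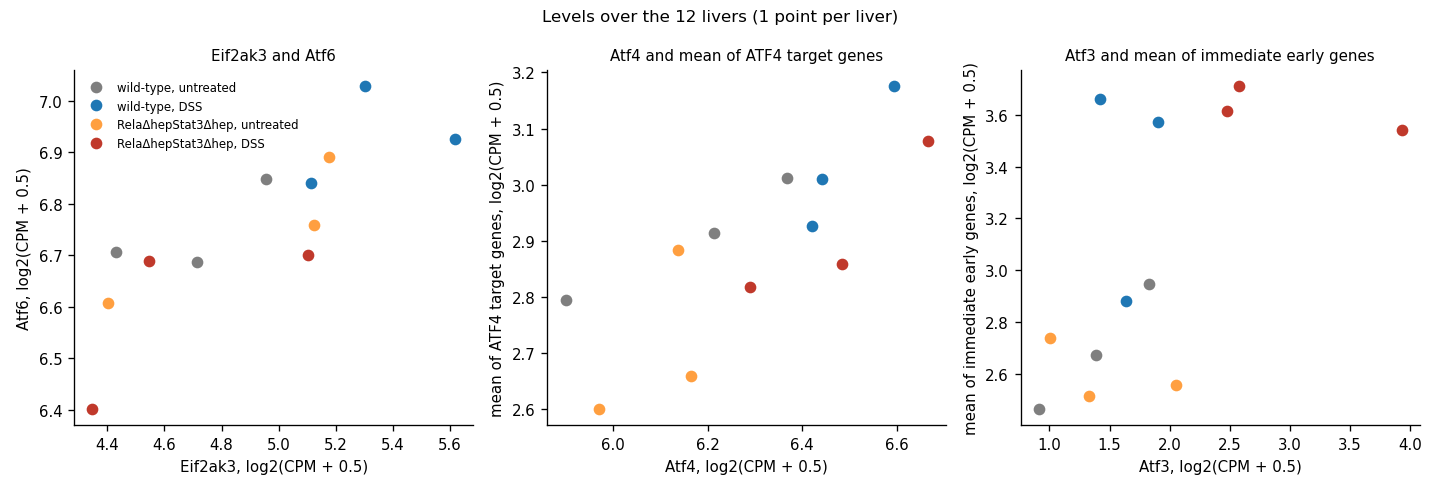
Levels on log2(CPM + 0.5) in the 12 livers, coloured by group, of Atf6 against Eif2ak3 (left, r = 0.827), of the mean of 26 ATF4 targets against Atf4 (middle, r = 0.794) and of the mean of 18 immediate early genes against Atf3 (right, r = 0.615). In the right panel the points part mainly by group, with r = 0.0241 once group means are subtracted.

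The genes most like each member over the 12 livers were sought among 10441 protein-coding genes, by Pearson r on log2(CPM + 0.5), as a description. Ern1 was followed most closely by Diexf (0.930), Larp4b (0.924) and Pcgf3 (0.895), and Eif2ak3 by Alg2 (0.919), Rapgef2 (0.867) and Btbd6 (0.853). For Atf6 they included Sec24d (0.914), a coat protein of ER export, and 0610007L01Rik (0.893). Xbp1 was nearest to Mrpl17 (0.893), Gramd3 (0.882) and BC017612 (0.860), Atf4 to Nfkbie (0.922), Slc37a3 (0.904) and Fbxo6 (0.895), and Atf3 to 9030625A04Rik (0.917), Dusp6 (0.916) and Cep120 (0.915). Among the genes named here, Sec24d is also in the target list of XBP1s and ATF6.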

How the data were processed

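Paired-end reads of 12 livers were trimmed with fastp, aligned to mm9 with HISAT2 and assigned to genes with StringTie by the authors. These estimated counts were deposited by the authors unnormalised and already whole, so nothing was rounded. Of 51609 rows, 23458 were 0 in every library. Names and positions came from GENCODE vM1 (NCBIM37, which is mm9).

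Groups came from the sample labels. In edgeR 4.0.16 (R 4.3.3), genes were filtered with filterByExpr (17652 kept), scaled by TMM and compared in a robust quasi-likelihood fit (F test) of the 4 groups (biological coefficient of variation 0.317). The Benjamini-Hochberg adjustment ran over all tested genes, with a threshold of 0.05. Standard errors were taken as the log2 fold change over the square root of F. Exact two-sided permutation tests used log2(CPM + 0.5), and those of relations 100000 permutations. With 3 livers against 3 the smallest exact p is 0.1. The labels number the livers of a group, which the study describes as biological replicates, and p-values measure the spread between these livers.

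The 6 genes and the lists around them were chosen with earlier results of these data known. All 6 genes are described. From each list, genes past the threshold were named, up to 4 per comparison, and per gene the 3 with the highest correlation, of which 1 is not reported here. Alternatives were the DESeq2 (1.42.0) Wald test, limma-voom (limma 3.58.1), DESeq2 size factors, no filter, at least 10 counts in every liver, only the compared groups, the replicate number as a block, Xist over 50 CPM as a covariate and leaving out each liver. Within each group no pair of libraries was a duplicate, and pairs from different groups were not part of this check. The steps were tested on simulated data. List genes without a row, such as Ddit3, were not analysed here. The study's methods give a number of unique fragments per sample that lies below every total of estimated counts. The totals are therefore not read as numbers of sequenced fragments. No batch labels were used.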

Additional observations from a re-analysis of the deposited data

Results flagged for a closer look

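Atf6 was set apart because its 3 DSS-treated wild-type livers all exceeded the untreated wild-type mean, while its 3 DSS-treated livers labelled RelaΔhepStat3Δhep were all below the mean of their untreated group. The test of the difference between the DSS responses gave -0.34 on the log2 scale (SE 0.18, edgeR adjusted p = 0.376), which did not pass.

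Sparc, a gene of the list of mRNAs that IRE1α degrades, was set apart because the test of the difference between its DSS responses passed, at 1.40 on the log2 scale (SE 0.15, edgeR adjusted p = 0.00248). The direction was down in wild-type liver, in 3 of 3 livers, and up in livers labelled RelaΔhepStat3Δhep, in 3 of 3. With high Xist as a covariate the difference was 1.39 and the adjusted p 0.227, and leaving out each liver in turn kept it between 0.00382 and 0.0152. Stellate cell markers, of which edgeR called none, had a median of 1.20 in the same difference, with 4 of 5 positive, and their part in the Sparc values was not tested.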

How the results depend on the processing

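Of the members, only Atf3 after DSS in livers labelled RelaΔhepStat3Δhep was called, and this count of 1 was 0 without a filter, with only the compared groups, with the replicate block, with high Xist as a covariate, and 0 to 1 over the fits that left out a liver. DESeq2 called 1 member between genotypes after DSS, where edgeR called 0. Genes called in the 6 lists numbered 3 in wild-type liver after DSS (DESeq2 11, limma-voom 5, only the compared groups 1, Xist covariate 1, leaving out a liver 1 to 4). They numbered 15 in livers labelled RelaΔhepStat3Δhep (DESeq2 23, Xist covariate 0, leaving out a liver 5 to 17), 1 between genotypes untreated (DESeq2 7, limma-voom 5, only the compared groups 3, leaving out a liver 1 to 3), 1 between genotypes after DSS (DESeq2 14, limma-voom 0, only the compared groups 0, Xist covariate 0, leaving out a liver 0 to 11) and 1 in the difference of DSS responses (DESeq2 7, Xist covariate 0, leaving out a liver 1 to 2). Of the 21 calls, DESeq2 kept 21, the Xist covariate 2 and every fit without a liver 7. Counts over all genes moved too: in livers labelled RelaΔhepStat3Δhep after DSS they were 1240 in edgeR, 2326 in DESeq2 and 4 with the Xist covariate, and in wild-type liver 121, 857 and 50. The cause of these shifts was not tested.

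Direction turned only in log2 fold changes that were not called. With the Xist covariate the difference of DSS responses was 0.32 for Xbp1 and -0.00061 for Atf4. Between genotypes, Atf4 was 0.0023 untreated with limma-voom, and after DSS -0.00058 with DESeq2 size factors, -0.011 with at least 10 counts in every liver, -0.00492 with only the compared groups, -0.00482 with the replicate block and -0.061 with the Xist covariate. Over the fits that left out a liver, the range crossed 0 for Ern1 after DSS in wild-type liver (-0.18 to 0.28) and between genotypes after DSS (-0.40 to 0.072), for Atf6 between genotypes untreated (-0.067 to 0.074), for Atf3 in the same comparison (-0.31 to 0.45), for Xbp1 after DSS in wild-type liver (-0.085 to 0.44), in livers labelled RelaΔhepStat3Δhep (-0.067 to 0.34) and in the difference of responses (-0.38 to 0.18), and for Atf4 between genotypes untreated (-0.20 to 0.027), after DSS (-0.10 to 0.10) and in the difference of responses (-0.024 to 0.21).

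The replicate numbers did not pair the livers: deviations of same-numbered livers correlated at -0.0819 to 0.260, those of other pairs at -0.313 to 0.266. With the replicate block Atf3 had a log2 fold change of 1.73 (adjusted p = 0.0573) after DSS in livers labelled RelaΔhepStat3Δhep, and 19 of the 21 list calls were kept. High Xist and the DSS-treated livers labelled RelaΔhepStat3Δhep coincide apart from 1 untreated wild-type liver, so a covariate for it leaves little with which to estimate that group. Atf3 had the fewest counts of the members and the largest standard error.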
